A study of Mus musculus with 6 samples.

Results

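The genes described here are those whose symbol begins with Kdm, Kmt, Hdac, Sirt, Setd, Ezh, Dnmt or Tet followed by a digit, which were 59 of the 21878 genes counted. They were 18 Kdm, 6 Kmt, 11 Hdac, 7 Sirt, 8 Setd, 2 Ezh, 4 Dnmt and 3 Tet genes, so 20 writers, which add a mark, and 39 erasers, which remove one. Their transcripts were counted by RNA sequencing of macrophages grown from the bone marrow of wild-type C57BL/6 mice with 50 ng/mL macrophage colony-stimulating factor. In both groups the macrophages had first been kept for 48 hours in a transwell (pores of 0.4 µm) with LLC, a mouse lung carcinoma line. After a change of medium they were given for 24 hours either 100 µg/mL β-elemene, a plant sesquiterpene, or the same volume of phosphate-buffered saline (PBS). Each group had 3 libraries, named M1 for β-elemene and M2 for PBS by the submitters without a stated meaning, and nothing in the labels says that they came from separate cultures, so every p-value below measures only the spread between these libraries.

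Chromatin carries marks that enzymes put on and take off. Histone methyltransferases of the Kmt, Setd and Ezh families and the DNA methyltransferases (Dnmt) are writers. Histone demethylases (Kdm), histone deacetylases (Hdac), the NAD-dependent sirtuins (Sirt) and the Tet dioxygenases, which oxidise 5-methylcytosine, are erasers. Methylation of lysine 4 of histone H3 (H3K4) marks active promoters and enhancers, methylation of H3K27 by the Ezh enzymes marks silenced genes, and deacetylation generally goes with lower transcription. In macrophages several of these enzymes are known to shape inflammatory gene expression, among them Kdm6b, Tet2, Hdac3 and Ezh2.

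Gene counts totalled between 18916844 and 20550078 in the β-elemene libraries and between 20524959 and 20729887 in the PBS libraries. The listed genes took 0.239% to 0.255% of them in the former and 0.297% to 0.302% in the latter. Values are counts per 1000000 library counts (CPM) after TMM scaling, a correction for differences in composition. Gene positions are those of build GRCm38. The TMM factors lay between 0.794 and 0.812 for β-elemene and between 1.24 and 1.26 for PBS. Because these factors set the groups apart, every direction below is relative to that scaling. Under library size alone the log2 fold changes of all genes shifted by -0.64 in the median. Macrophage markers were present in all libraries, with a sum between 17307 and 17873 CPM for β-elemene and between 13044 and 14017 CPM for PBS. Of 8 epithelial markers, 7 were under 1 CPM in every library, Krt19 and Cldn4 had no count, and Cdh1 was the exception, at 0.0434 CPM with β-elemene and 135 CPM with PBS. The 19 proliferation genes summed to between 494.8 and 513.7 CPM in the β-elemene libraries and between 645.8 and 746.9 CPM in the PBS libraries. Neutrophil markers summed to between 27.1 and 30.7 CPM against 10.5 to 14.7 CPM, dendritic markers to between 4.23 and 11.0 CPM against 4.03 to 4.86 CPM, and fibroblast markers to between 18.3 and 25.3 CPM against 15.1 to 19.5 CPM. The part of such cells in the values below was not tested.

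Of the 59 genes, 55 had enough counts to be tested (19 writers and 36 erasers), and 45 of these differed between the groups in edgeR's quasi-likelihood test at an adjusted p under 0.05. Of the tested genes 23 rose with β-elemene and 22 fell, beside 36.6% of all 11459 genes tested that rose and 40.2% that fell. Under library size alone 8 enzymes rose and 40 fell, beside 18.9% and 69.8% of all genes, and under upper-quartile scaling 13 rose and 31 fell, beside 25.7% and 57.0%. Of the enzymes that rose under TMM, 8 passed as lower under library size alone (Hdac7, Kdm2a, Kdm3a, Kdm5a, Kmt2b, Setd2, Setd3 and Sirt1). The share of the enzymes that differed was 81.8%, close to the 76.7% of all genes that did, so a call by itself sets these enzymes little apart. The counts by family and by list below are to be read beside these shares of all genes. The median log2 fold change was 0.07 over the enzymes and -0.06 over all genes. Under TMM at least 2-fold changes were found for 4 enzymes that rose (Hdac1, Kdm4a, Tet2 and Setd1b) and 10 that fell (Hdac11, Hdac5, Hdac4, Sirt3, Kdm2b, Dnmt1, Hdac10, Dnmt3b, Hdac8 and Hdac6). Of all genes, 17.0% rose and 18.3% fell that far. For 43 of the 55 enzymes, and for 79.9% of all genes, the libraries of one group were all above those of the other. In bulk RNA, fewer cells of a type and less RNA per cell cannot be told apart, which holds for every level below.

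**Figure D1:**
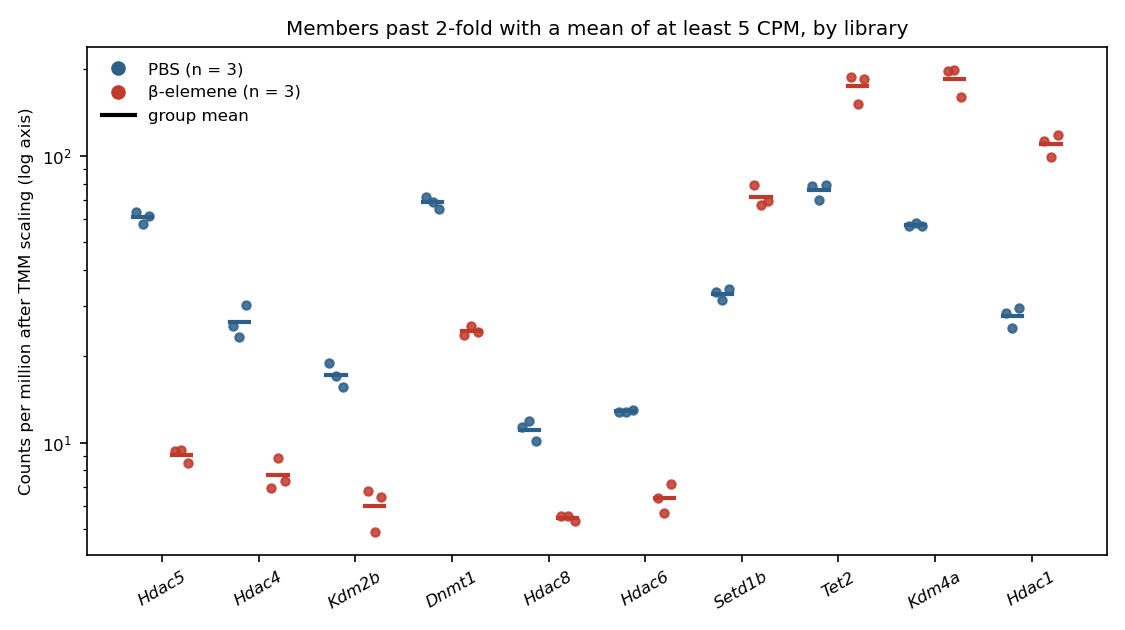
CPM after TMM scaling (log axis) for the 10 enzymes that changed at least 2-fold and averaged at least 5 CPM, with 1 point per library, 3 libraries per group and bars at the group means. Hdac5, Hdac4, Kdm2b, Dnmt1, Hdac8 and Hdac6 are lower in every β-elemene library than in any PBS library, and Setd1b, Tet2, Kdm4a and Hdac1 are higher in every one.

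Of 16 histone and related SET-domain methyltransferases tested, 9 rose, 4 fell and 3 did not pass, with a median log2 fold change of 0.33 (under library size alone 3 rose and 10 fell). Among the H3K4 enzymes, the large subunits Kmt2a, Kmt2b, Kmt2c and Kmt2d all rose under TMM, Kmt2b with a negative log2 fold change under library size alone. Kmt2d, which methylates H3K4 at enhancers, stood at 173, 131 and 150 CPM in the β-elemene libraries and at 80.5, 78.4 and 86.3 CPM in the PBS libraries. These groups lie apart under TMM, and Kmt2d rose by 0.89 on the log2 scale (SE 0.09, edgeR adjusted p = 2.83e-06). Kmt2c, its close relative, stood at 111, 95.2 and 114 CPM against 59.5, 59.4 and 62.5 CPM, also with no overlap under TMM (log2 fold change 0.82). Under library size alone the log2 fold changes were 0.25 for Kmt2d and 0.18 for Kmt2c, and both passed as higher. Divided by total counts alone, the groups of both genes overlap. Kmt2a rose by 0.83 on the log2 scale under TMM and did not pass under library size alone (0.19). Kmt2b rose by 0.37 under TMM, but its log2 fold change was -0.27 under library size alone. Kmt2e, a family member without clear enzyme activity, was 0.14 higher on the log2 scale under TMM without passing (edgeR adjusted p = 0.0777) and passed as lower under library size alone (-0.50) and the upper quartile (-0.18). It passed as higher under DESeq2's size factors (0.18), without β-elemene replicate 2 (0.20) and without PBS replicate 3 (0.19).

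Setd1a and Setd1b are the alternative catalytic subunits of a complex that places H3K4 trimethylation at promoters, and they went in opposite directions. Setd1b (chr5:123142040-123168630) stood at 78.8, 67.5 and 69.8 CPM with β-elemene and at 33.5, 31.4 and 34.4 CPM with PBS. Setd1a stood at 27.6, 29.4 and 28.9 CPM with β-elemene and at 41.9, 38.6 and 40.4 CPM with PBS. For each gene the libraries of the groups do not overlap. Setd1b rose by 1.12 (SE 0.07, edgeR adjusted p = 7.47e-09) and Setd1a fell by 0.49 (SE 0.07, edgeR adjusted p = 1.55e-05) on the log2 scale. Over the alternative settings the log2 fold change of Setd1b was at least 0.48 and passed each time. The ratio of Setd1b to Setd1a counts, which needs no scaling between libraries, was 2.86, 2.30 and 2.41 with β-elemene and 0.800, 0.814 and 0.851 with PBS. The ratio was thus higher in every β-elemene library than in any PBS library. In the annotation 51.8% of the exon bases of Setd1a are shared with a same-strand gene model, Gm49388, so its count is uncertain. Setd7, which adds a single methyl group to H3K4 and to other proteins, fell by 0.81 on the log2 scale (12.2, 14.1 and 15.8 CPM against 24.7, 26.0 and 23.1 CPM).

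The H3K27 writers showed no call under TMM. Ezh2, the catalytic subunit of Polycomb repressive complex 2 in dividing cells, stood at 9.84, 12.0 and 10.2 CPM with β-elemene and at 10.3, 9.05 and 8.81 CPM with PBS. Its paralog Ezh1 stood at 41.1, 38.7 and 37.3 CPM against 35.3, 37.4 and 34.7 CPM. Both pairs of groups overlap, with log2 fold changes of 0.18 (edgeR adjusted p = 0.172) and 0.13 (edgeR adjusted p = 0.103), and under library size alone both turn negative and pass as lower (-0.45 and -0.51). Ezh1 also passed as lower under the upper quartile (-0.19) and as higher under DESeq2's size factors (0.17). Per kilobase of exon Ezh1 stood above Ezh2, at 5.25 against 1.60 CPM per kilobase with β-elemene and at 4.81 against 1.41 with PBS.

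The enzymes listed here as writers of H3K36 methylation, Setd2 and Setd5, rose under TMM. Methyltransferases under other symbols, the Nsd genes among them, were outside the rule. Setd2, which trimethylates H3K36, rose by 0.30 and Setd5, a SET-domain protein, by 0.60 on the log2 scale, although both log2 fold changes fell below 0 under library size alone (-0.34 and -0.04). Kmt5a, the enzyme for monomethylation of histone H4 lysine 20 (H4K20), stood at 158, 182 and 137 CPM with β-elemene and at 86.2, 95.1 and 82.1 CPM with PBS. Its groups do not overlap under TMM and its log2 rise was 0.86 (SE 0.10, edgeR adjusted p = 1.6e-05). Under library size alone this rise was 0.22 and did not pass. The symbols Kmt5b and Kmt5c, for the enzymes that add further methyl groups to H4K20, did not appear in the table, which lists them under older names, so they fall outside the rule and are given as relatives. Kmt5c stood at 4.12, 4.69 and 5.27 CPM with β-elemene and at 22.7, 20.6 and 20 CPM with PBS. It fell by 2.17 on the log2 scale (SE 0.12, edgeR adjusted p = 1.14e-09), while Kmt5b showed 0.06 with no call under TMM and passed as lower under library size alone (-0.57) and the upper quartile (-0.25).

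SET-domain proteins that act mainly on other substrates were mixed. Setd3, the actin histidine methyltransferase, rose by 0.39 on the log2 scale under TMM and showed -0.25 under library size alone. Setd6, which methylates the NF-kB subunit RelA, fell by 0.57. Setd4 fell by 0.76, and the call was lost without β-elemene replicate 1 (-0.60), β-elemene replicate 2 (-0.60) or PBS replicate 3 (-0.62).

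All 3 DNA methyltransferases tested fell, with a median log2 fold change of -1.35. Dnmt1 (chr9:20907206-20959888), the maintenance enzyme that copies methylation onto new DNA strands, stood at 23.7, 25.5 and 24.3 CPM with β-elemene and at 71.8, 69.1 and 65.3 CPM with PBS. No β-elemene library came near a PBS library, and Dnmt1 fell by 1.49 on the log2 scale (SE 0.07, edgeR adjusted p = 1.62e-10). Dnmt3a, a de novo methyltransferase and by CPM per kilobase the highest of the 4 Dnmt genes in both groups, stood at 196, 193 and 214 CPM against 241, 246 and 251 CPM. Its groups also stayed apart, with a smaller fall of 0.29 (SE 0.06, edgeR adjusted p = 0.000395). Dnmt3b, the other de novo enzyme, was low at 0.615, 0.716 and 0.368 CPM against 1.51, 1.55 and 1.29 CPM and fell by 1.35. Dnmt3l, a catalytically inactive cofactor, had too few counts to pass the filter, with 10, 14 and 6 counts with β-elemene and 0, 0 and 1 with PBS. The ratio of its summed counts after scaling was 48.3, with a 95% counting interval of 8.03 to 1972. Dnmt3l passed as higher with no filter and in the 4 fits without 1 library in which it was kept. In those 4 fits the filter kept it only through its β-elemene counts, so these calls add no support.

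Tet2 and Tet3 moved in opposite directions. Tet2 (chr3:133463677-133545136), the Tet enzyme best known in blood cells, stood at 188, 151 and 185 CPM with β-elemene and at 78.4, 70.0 and 79.1 CPM with PBS. The lowest β-elemene library was above the highest PBS library, and Tet2 rose by 1.21 on the log2 scale (SE 0.08, edgeR adjusted p = 7.23e-08). Over the alternative settings its log2 fold change was at least 0.57 and passed each time. Tet3 stood at 81.2, 69.1 and 73.7 CPM against 84.0, 79.0 and 87.8 CPM. The groups of Tet3 overlap, and its fall of 0.16 was close to the threshold (edgeR adjusted p = 0.0466, at most 0.258 over the alternative settings). The call on Tet3 was lost in DESeq2 (-0.12), under its size factors in edgeR (-0.12) and without β-elemene replicate 2 (-0.08), β-elemene replicate 3 (-0.14), PBS replicate 1 (-0.16) or PBS replicate 3 (-0.13). Tet1 was near 0 in all libraries (0.0613 to 0.308 CPM with β-elemene, at most 0.155 CPM with PBS) and was not tested. Among the partners of these enzymes, 12 of 14 were tested, of which 5 rose, 3 fell and 4 did not pass (under library size alone 3 rose and 8 fell). Uhrf1, which recruits Dnmt1 to newly copied DNA, stood at 4.31, 2.93 and 3.25 CPM with β-elemene and at 14.1, 12.3 and 13.1 CPM with PBS and fell by 1.91 on the log2 scale. Tdg, the glycosylase that removes oxidised 5-methylcytosine, rose by 1.03. Dnmt1 and Uhrf1 are expressed mostly in dividing cells, and 15 of 19 proliferation genes fell, beside 40.2% of all genes tested, with Top2a at -2.28 and Mki67 at -0.80. The most abundant of them, Pcna, showed 0.09 with no call. The part of cell division in the Dnmt1 value was not tested.

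The 250 bases before an annotated start of Tet2 are shown because Tet2 rose more than 2-fold under TMM and this region is dense in CpG. These bases lie inside the gene span given above, which on the minus strand begins at 133545136. They hold 51 CpG sites, where the median promoter window holds 17 among these enzymes and 6 among all genes. The sequence is from RefSeq (GRCm38.p6) and, having no match to the 8 motifs searched, is all in lower case.
Tet2 (chr3:133544391-133544640, minus strand): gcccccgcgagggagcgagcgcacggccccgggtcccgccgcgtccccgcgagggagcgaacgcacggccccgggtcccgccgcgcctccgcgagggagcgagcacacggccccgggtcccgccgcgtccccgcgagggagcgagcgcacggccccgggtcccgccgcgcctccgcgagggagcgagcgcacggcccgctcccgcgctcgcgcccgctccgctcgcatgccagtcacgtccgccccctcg

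Of 16 Kdm genes tested, 7 rose, 5 fell and 4 did not pass, with a median log2 fold change of 0.07 (under library size alone 3 rose and 12 fell). The flavin-dependent enzymes Kdm1a and Kdm1b, which remove H3K4 monomethyl and dimethyl marks, split. Kdm1a stood at 78.5, 71.9 and 72.7 CPM with β-elemene and at 37.0, 37.6 and 37.2 CPM with PBS. Kdm1b stood at 7.13, 7.10 and 8.40 CPM against 12.7, 11.4 and 9.79 CPM. Neither gene's groups overlap. Kdm1a rose by 1.00 (SE 0.06, edgeR adjusted p = 4.05e-09) and Kdm1b fell by 0.58 (SE 0.13, edgeR adjusted p = 0.00114). Under library size alone the values were 0.36 and -1.22, and both passed.

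The Kdm4 enzymes remove methyl groups from H3K9 and H3K36. Kdm4a (chr4:118136957-118180090) stood at 198, 199 and 160 CPM with β-elemene and at 56.8, 58.2 and 57.1 CPM with PBS. It rose by 1.70 on the log2 scale, or 3.24-fold (SE 0.08, edgeR adjusted p = 5.54e-10), with the groups far apart, and per kilobase of exon it was the highest of all 59 enzymes with β-elemene (32.1 CPM per kilobase, with Hdac1 next at 31.9). Kdm4b stood at 20.7, 14.1 and 16.3 CPM against 22.2, 23.0 and 24.3 CPM and fell by 0.44. Kdm4c, at 25.3 to 27.9 CPM against 27 to 28 CPM, did not pass under TMM (-0.04, and 0.02 without β-elemene replicate 2) but passed as lower under library size alone (-0.68) and the upper quartile (-0.36), and Kdm4d had at most 0.0390 CPM. The ratio of Kdm4b to Kdm4a counts was 0.105, 0.0708 and 0.102 with β-elemene and 0.391, 0.395 and 0.425 with PBS, so Kdm4a made up more of the pair in every β-elemene library.

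The 250 bases before the Kdm4a start are shown because this demethylase rose most. Capitals mark a match to the AP-1 motif TGANTCA, searched on both strands. It was found in 7.81% of all promoter windows and in 8.70% of the enzymes' windows (6 of 69, from 5 of the 48 enzymes with a window). The sequence is from RefSeq (GRCm38.p6), and the match is a description of letters, not a measured site.
Kdm4a (chr4:118180044-118180293, minus strand): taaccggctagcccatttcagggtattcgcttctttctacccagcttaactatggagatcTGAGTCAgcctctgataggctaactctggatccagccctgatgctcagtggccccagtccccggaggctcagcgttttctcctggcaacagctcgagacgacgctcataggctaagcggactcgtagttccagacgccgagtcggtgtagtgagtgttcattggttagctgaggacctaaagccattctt

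Kdm2b and Kdm2a, H3K36 demethylases that bind CpG islands, also split. Kdm2b (chr5:122870664-122989270) stood at 6.77, 4.88 and 6.44 CPM with β-elemene and at 18.9, 17.1 and 15.7 CPM with PBS. It fell by 1.51 on the log2 scale (SE 0.13, edgeR adjusted p = 1.67e-07) with no overlap of the groups. Kdm2a, at 96.0 to 109 CPM against 89.5 to 96.6 CPM, overlapped and rose by 0.16 under TMM but fell under library size alone (-0.48) and the upper quartile (-0.15). Its call was also lost without β-elemene replicate 1 (0.14), PBS replicate 1 (0.14) or PBS replicate 2 (0.15). Kdm8, assigned to H3K36 by older work, was 0.06 with no call under TMM, -0.57 with a call under library size alone and -0.10 without β-elemene replicate 2.

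Among the H3K9 demethylases Kdm3b rose by 0.65 under TMM and did not pass under library size alone (0.02). In the annotation 24.6% of the Kdm3b exon bases lie opposite Gm26538, a gene on the other strand. Kdm3a rose by 0.16 under TMM and fell under library size alone (-0.47) and the upper quartile (-0.15), and its call was lost with no filter (0.15) and without PBS replicate 1 (0.15), 2 (0.16) or 3 (0.18). Kdm7a, which also acts on H3K27, fell by 0.18, a call lost in DESeq2 (-0.14) and without β-elemene replicate 1 (-0.13) or 3 (-0.14). The H3K4 demethylases Kdm5a and Kdm5c rose under TMM, Kdm5a with a negative value under library size alone. Kdm5c, X-linked, stood at 194, 172 and 175 CPM with β-elemene and at 103, 103 and 107 CPM with PBS, with no overlap. Its rise was 0.79 (SE 0.06, edgeR adjusted p = 3.69e-08), and under library size alone it was 0.15 and passed. Kdm5a rose by 0.41 under TMM and showed -0.23 under library size alone. Kdm5b did not pass under TMM (0.07) and passed as lower under library size alone (-0.57) and the upper quartile (-0.25), and the Y-linked Kdm5d had 0 counts in every library.

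Of the H3K27 demethylases, Kdm6a passed the test under TMM and Kdm6b did not. Kdm6b, known as an inflammation-induced demethylase in macrophages, stood at 35.5, 20.5 and 26.1 CPM with β-elemene and at 29.1, 27.5 and 31.1 CPM with PBS. The β-elemene libraries of Kdm6b spread around the PBS libraries, and the log2 value of -0.09 (SE 0.18) did not pass (edgeR adjusted p = 0.654) and was 0.10 without β-elemene replicate 2. Without β-elemene replicate 1 it was -0.30 and passed (edgeR adjusted p = 0.0282), as it did under library size alone (-0.73). Kdm6a stood at 32.7, 31.6 and 32.7 CPM against 37.1, 37.8 and 38.8 CPM and fell by 0.23 with the groups apart (edgeR adjusted p = 0.00477).

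Of 11 Hdac genes, all tested, 3 rose, 6 fell and 2 did not pass, and the median gene was Hdac6, which fell by 1.00 on the log2 scale (under library size alone 1 rose and 9 fell). In class I, which holds the nuclear deacetylases of the corepressor complexes, only Hdac1 rose. Hdac1 (chr4:129516104-129542646) stood at 113, 99.0 and 118 CPM with β-elemene and at 28.3, 25.1 and 29.5 CPM with PBS. The groups were far apart, with a 3.98-fold rise (log2 1.99, SE 0.08, edgeR adjusted p = 9.16e-11) that was the largest rise among the enzymes tested. The mouse genome holds a pseudogene copy of Hdac1, and how reads shared with it were counted is not given in the sources used here. Its paralog Hdac2 stood at 50.6, 50.1 and 45.3 CPM against 46.9, 46.1 and 47.4 CPM, which overlap. The log2 fold change of Hdac2 was 0.06 without passing (edgeR adjusted p = 0.434) and -0.58 under library size alone, and that of Hdac3, another nuclear deacetylase of this class, was 0.10 (edgeR adjusted p = 0.324) and -0.54. Both passed as lower under library size alone and under the upper quartile (-0.26 and -0.22). The ratio of Hdac1 to Hdac2 counts was 2.23, 1.97 and 2.61 with β-elemene and 0.604, 0.544 and 0.621 with PBS, again with no overlap between the groups. Hdac8 (chrX:102284638-102505381) stood at 5.54, 5.53 and 5.33 CPM against 11.3, 11.9 and 10.1 CPM and fell by 1.02 on the log2 scale.

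Class IIa deacetylases shuttle between cytoplasm and nucleus, where they bind MEF2 transcription factors. Hdac5 (chr11:102195747-102230172) stood at 9.35, 9.44 and 8.46 CPM with β-elemene and at 63.6, 58.0 and 61.6 CPM with PBS. It was 6.72-fold lower with β-elemene, -2.75 on the log2 scale (SE 0.08, edgeR adjusted p = 1.86e-12), and its groups did not come near each other. Hdac4 (chr1:91928779-92195702) stood at 6.95, 8.85 and 7.36 CPM against 25.6, 23.4 and 30.3 CPM and fell by 1.78 (SE 0.12, edgeR adjusted p = 2.09e-08), again without overlap. In the annotation 22.4% of the Hdac4 exon bases lie opposite Gm26720, a gene on the other strand. Hdac7, at 12.1 to 13.9 CPM against 9.02 to 12.3 CPM, rose by 0.29 on the log2 scale under TMM (edgeR adjusted p = 0.0494) and showed -0.35 under library size alone. The call on Hdac7 was lost under the upper quartile (-0.03), with no filter (0.27), with a filter of 1 CPM in 3 libraries (0.28), without β-elemene replicate 1 (0.32) or 2 (0.26) and without PBS replicate 1 (0.18) or 2 (0.27). Hdac9, at 4.17 to 6.74 CPM against 2.45 to 3.82 CPM, rose by 0.69 under TMM, a call lost under library size alone (0.05), under the upper quartile (0.38) and without β-elemene replicate 3 (0.50). Of 10 genes tested from a list of class IIa partners and kinases, 1 rose (Sik3, a kinase that keeps class IIa enzymes in the cytoplasm, 1.66), 5 fell and 4 did not pass, with 1 and 8 under library size alone. Mef2c, one of the MEF2 factors, fell by 1.61.

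The sequences before an annotated start of Hdac5 and of Hdac4 are shown because these were the larger falls among the enzymes averaging at least 5 CPM. The Hdac4 window belongs to a start inside the gene span given above, which on the minus strand begins at 92195702. Capitals mark a match to the MEF2 motif, which was searched on both strands. It was found in 0.557% of the 32851 promoter windows of all genes and in 1.45% of the enzymes' windows (1 of 69, from 1 of the 48 enzymes with a window). The match in Hdac5 begins 20 bases before the annotated start. The Hdac4 window held none of the 8 motifs, which says only that these letters are not in it. Both are from RefSeq (GRCm38.p6).
Hdac5 (chr11:102230173-102230422, minus strand): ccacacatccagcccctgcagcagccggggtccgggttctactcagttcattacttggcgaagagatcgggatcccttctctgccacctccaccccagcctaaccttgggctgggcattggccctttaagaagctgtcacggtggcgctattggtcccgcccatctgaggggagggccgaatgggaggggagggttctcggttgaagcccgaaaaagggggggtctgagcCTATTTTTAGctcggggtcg
Hdac4 (chr1:92180342-92180591, minus strand): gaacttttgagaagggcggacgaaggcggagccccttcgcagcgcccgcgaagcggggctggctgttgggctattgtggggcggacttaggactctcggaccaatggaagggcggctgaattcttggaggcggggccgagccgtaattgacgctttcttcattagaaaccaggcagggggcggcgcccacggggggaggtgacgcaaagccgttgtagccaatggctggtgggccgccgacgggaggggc

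The remaining deacetylases fell. Hdac6 (chrX:7930116-7948047), the cytoplasmic tubulin deacetylase, stood at 6.40, 5.66 and 7.17 CPM with β-elemene and at 12.8, 12.8 and 13.0 CPM with PBS and fell by 1.00 on the log2 scale. Hdac10, a polyamine deacetylase, fell by 1.36 (SE 0.17). Hdac11, the only class IV enzyme, had 1, 0 and 2 counts with β-elemene and 21, 20 and 26 with PBS. Its summed counts after scaling were 13.9 times as high with PBS, with a 95% counting interval of 4.54 to 68.9.

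Of 7 Sirt genes tested, 3 rose, 3 fell and 1 did not pass (under library size alone none rose and 5 fell). The nuclear and cytosolic enzymes Sirt1, Sirt2 and Sirt6 rose by 0.32, 0.51 and 0.47 on the log2 scale under TMM, and all 3 values were below 0 under library size alone (-0.32, -0.13 and -0.17). Sirt2, mainly a cytosolic deacetylase, stood at 125, 132 and 132 CPM with β-elemene and at 84.1, 98.3 and 90.1 CPM with PBS. These groups do not overlap under TMM. Sirt7, found in the nucleolus, fell by 0.22, a call lost in DESeq2 (-0.18) and without β-elemene replicate 3 (-0.14) or PBS replicate 1 (-0.20). The mitochondrial sirtuins were low. Sirt3 stood at 1.05, 1.43 and 1.66 CPM with β-elemene and at 3.37, 4.04 and 4.60 CPM with PBS and fell by 1.54 (SE 0.23, edgeR adjusted p = 4.7e-05). Sirt4 fell by 0.81. Sirt5, at -0.48, did not pass under TMM (edgeR adjusted p = 0.0691) and passed as lower under library size alone (-1.11) and the upper quartile (-0.79).

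**Figure D2:**
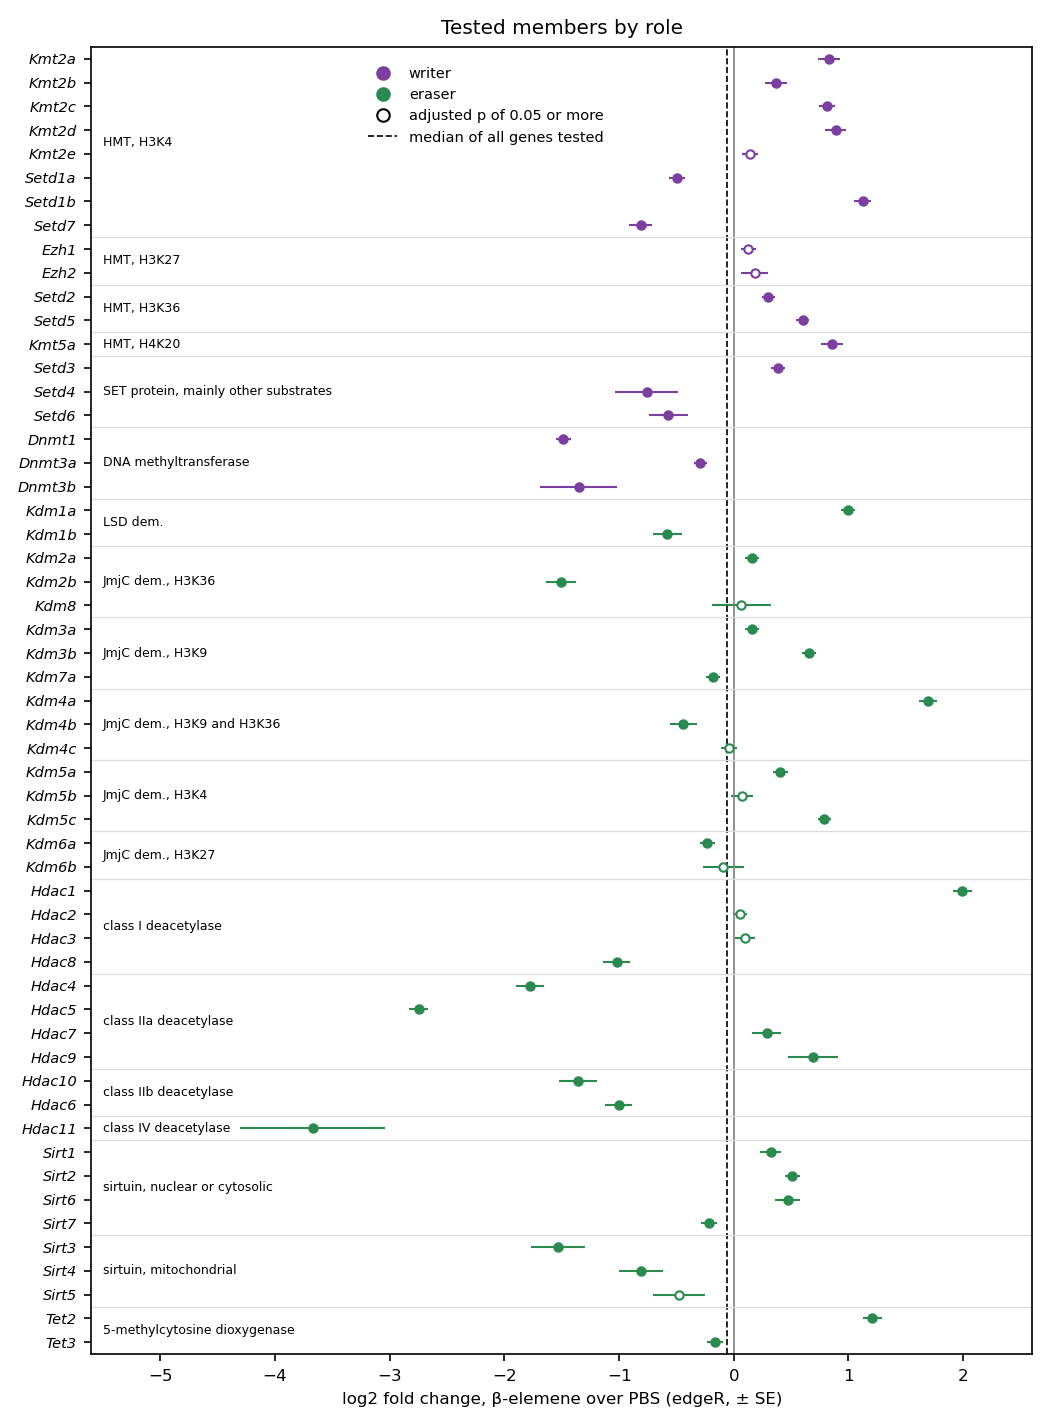
Log2 fold change of β-elemene over PBS with its SE (edgeR, TMM scaling, 3 libraries per group) for the 55 enzymes tested, grouped by role, with writers in purple, erasers in green and open points for those that did not pass. The Dnmt genes lie below 0, the Kmt2 genes above 0 and the Hdac genes on both sides, and among the Kmt2 genes Kmt2b and Kmt2e turn negative under library size alone.

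The writers were then set beside the erasers. Of 19 writers tested, 9 rose, 7 fell and 3 did not pass, with a median log2 fold change of 0.18. Of 36 erasers tested, 14 rose, 15 fell and 7 did not pass, with a median of 0.01. Neither side moved as one. Under library size alone 3 writers rose and 13 fell (median -0.45) and 5 erasers rose and 27 fell (median -0.63), beside 18.9% of all genes that rose and 69.8% that fell. Writers summed to 0.767, 0.777 and 0.773 times the eraser counts in the β-elemene libraries and to 0.808, 0.827 and 0.808 times in the PBS libraries. This ratio needs no scaling, is slightly lower in every β-elemene library and is set mostly by the most counted genes.

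**Figure D3:**
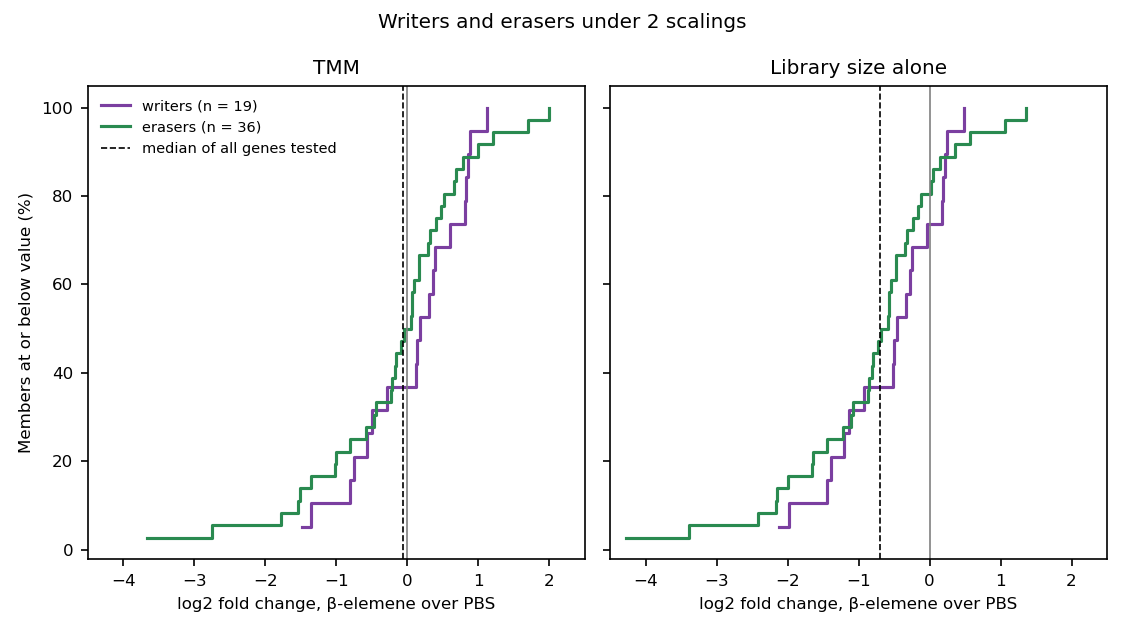
Cumulative share of 19 writers and 36 erasers at or below each log2 fold change of β-elemene over PBS, with TMM scaling on the left and library size alone on the right, and the median of all genes tested as a dashed line. The curves of writers and erasers stay close to each other under both scalings, while both shift to the left on the right-hand side, where the writer median goes from 0.18 to -0.45.

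Ratios of 2 genes within a library do not depend on the scaling between libraries. They were taken for 21 pairs, either paralogs or a writer with an eraser that acts on the same residue or base. In 6 pairs the ratio was higher in all β-elemene libraries than in any PBS library, in 9 it was lower, and in 6 the groups overlapped. Ratios of other gene pairs were not taken, and for 79.9% of all single genes tested the groups did not overlap. The count of pairs by itself therefore does not set these enzymes apart. For 3 libraries against 3, the exact two-sided permutation test cannot give a p below 0.1, and the 15 pairs without overlap all had that value (0.14 after Benjamini-Hochberg adjustment over 21 pairs), so no pair passes 0.05. For the DNA marks, Dnmt3a had 1.04, 1.28 and 1.16 times the counts of Tet2 with β-elemene and 3.08, 3.52 and 3.17 times with PBS. Dnmt1 had 0.292, 0.369 and 0.331 times the counts of Tet3 with β-elemene and 0.854, 0.875 and 0.744 times with PBS. In both of these pairs the methyltransferase made up less of the pair in every β-elemene library. For H3K4, the log2 ratio of Kmt2a to Kdm5a was 0.42 higher with β-elemene. This pair does not stand for all H3K4 enzymes. Under TMM the H3K4 erasers Kdm5c and Kdm1a rose by 0.79 and 1.00 on the log2 scale, beside 0.83 for Kmt2a. Kdm5b showed 0.07 with no call, and Kdm1b fell by 0.58. No ratio of Kmt2a to any of these erasers was taken. For H3K27, Ezh1 over Kdm6a was 0.35 higher on the log2 scale, and Ezh2 over Kdm6b overlapped (exact permutation p = 0.5). For H3K36, Setd2 over Kdm2a overlapped (exact permutation p = 0.2), and no ratio of Setd2 to a Kdm4 enzyme was taken. Among paralogs, the log2 ratio of Tet2 to Tet3 was 1.37 higher with β-elemene, Hdac4 to Hdac5 0.98 higher, Kdm2b to Kdm2a -1.68, Kmt5c to Kmt5b -2.23 and Dnmt1 to Dnmt3a -1.19. The pairs Ezh2 to Ezh1, Kdm6b to Kdm6a, Kmt2d to Kmt2c and Hdac7 to Hdac9 overlapped between the groups.

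**Figure D4:**
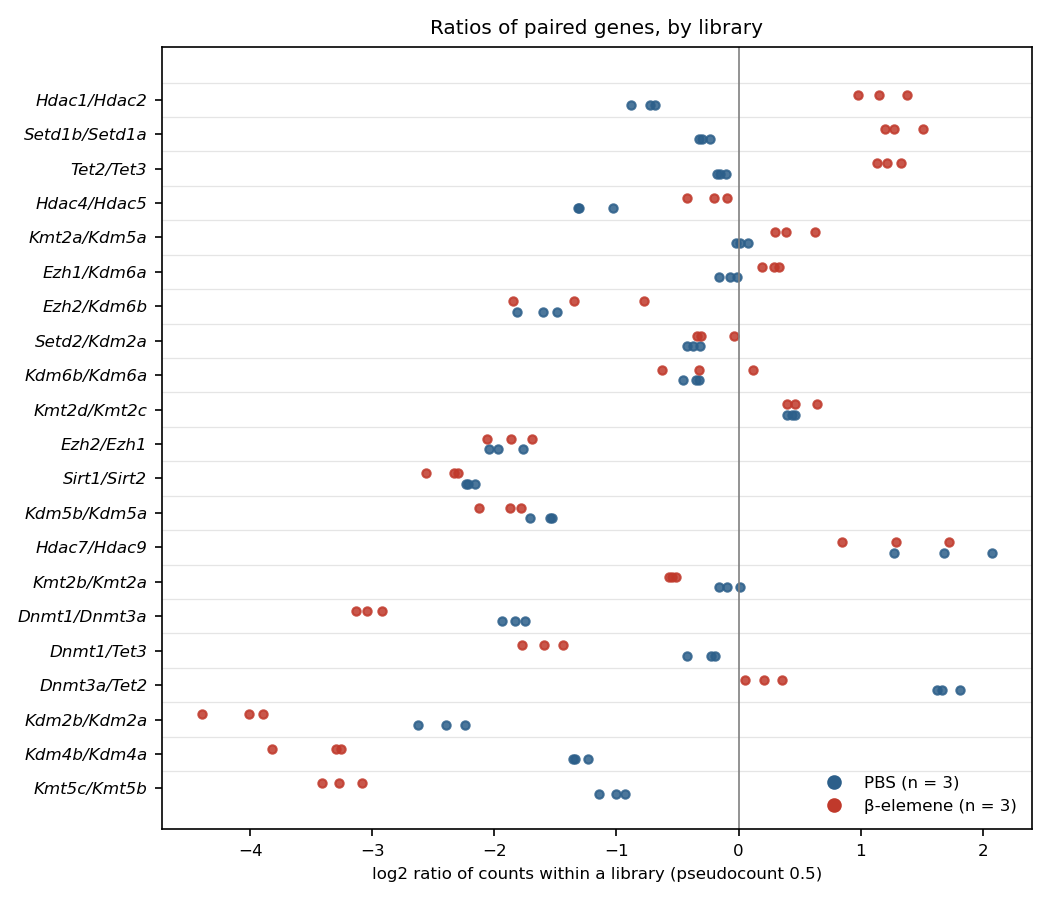
Log2 ratio of the counts of 2 genes within each library (pseudocount 0.5) for 21 pairs, with 1 point per library and 3 libraries per group. The pairs at the top (Hdac1/Hdac2, Setd1b/Setd1a and Tet2/Tet3) are higher in every β-elemene library, those at the bottom (Kmt5c/Kmt5b, Kdm4b/Kdm4a and Kdm2b/Kdm2a) are lower in every one, and Ezh2/Ezh1 overlaps.

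The partners of these enzymes and related enzymes under other names were counted in the same fit, where 36.6% of all genes rose and 40.2% fell. Of 9 Polycomb repressive complex 2 genes tested, 4 rose, 2 fell and 3 did not pass, with Aebp2, an accessory subunit, at 1.25 and Eed, a core subunit, at -0.89. Of 11 subunits of the H3K4 methyltransferase complexes, 3 rose, 5 fell and 3 did not pass, among them Rbbp5 at -0.48 and Ncoa6 at 0.50, which was -0.13 under library size alone. Among 16 further histone methyltransferases 5 rose, 10 fell and 1 did not pass, with Setdb2, an H3K9 methyltransferase known to be induced by interferon, at 3.16 and Suv39h2, another H3K9 enzyme, at -1.40. Among 7 further JmjC proteins tested 1 rose (Phf8, 0.82), 4 fell (Jmjd1c furthest, -2.02) and 2 did not pass. Of 12 histone acetyltransferases, the writers opposite the deacetylases, 6 rose, 5 fell and 1 did not pass, with Kat2b at 2.38 and Kat6b at -1.57. Of 22 corepressor genes tested 10 rose, 7 fell and 5 did not pass, with Sap30, a subunit of the Sin3 complex that holds Hdac1, at 3.16. All of these lists held genes that rose and genes that fell. Under library size alone the counts that rose and fell were 2 and 6 for Polycomb, 0 and 9 for the H3K4 complexes, 3 and 12 for the further methyltransferases, 1 and 6 for the JmjC proteins, 4 and 7 for the acetyltransferases and 3 and 18 for the corepressors. With that scaling 18.9% of all genes rose and 69.8% fell.

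Across the enzymes, 69 promoter windows of 48 genes (250 bases before to 50 after each start) were found in RefSeq, and 11 genes, Hdac1 and Setd1b among them, had none. The 250 bases before the start had a median GC content of 62.0%, where those of all genes had 52.4%. The E2F motifs TTTCCCGC and TTTGGCGC were found in 4.35% of the enzymes' windows and 1.56% of all windows, in Sirt4, Ezh2 and Dnmt1. The STAT motif TTCNNNGAA was found in 10.1% and 8.30% and the NF-kB motif in 11.6% and 8.46%. The cAMP response element TGACGTCA, the PU.1 motif GAGGAAGT and the interferon-stimulated response element were in none of the 69 windows, and in 1.79%, 3.20% and 3.44% of all windows.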

How the data were processed

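Poly(A) RNA was made into stranded libraries and read as paired ends, per the labels' protocols. HISAT2 2.2.1.0 and the build GRCm38.p6 come from the submitters' processing notes. The deposited values are raw counts of reads for each gene. The sources used here name neither the counting tool nor its strand setting, and 22 of the enzymes have exons that overlap a gene on the other strand. If strand was not used, the reads of such genes cannot be told apart.

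Genes were kept by filterByExpr (counts of at least 10, total of at least 15), which left 11459, scaled with TMM and tested with edgeR 4.0.16 (robust glmQLFit, glmQLFTest, group as the only term), with Benjamini-Hochberg adjustment over all genes at 0.05. Levels per kilobase use the exon union length from GENCODE M21. Counting intervals are exact binomial and cover counting error only. At this depth 0 counts allow up to 3 counts, or 0.116 to 0.195 CPM. Every pair of libraries of a group differed by more than sampling noise (chi-square per degree of freedom 3.82 to 13.8). The rule for enzymes given with full statistics was a call, at least a 2-fold change and a mean of at least 5 CPM, plus both genes of each printed pair. For each other list the largest rise and fall above a mean of 1 CPM were named. A gene picked in this way is left unreported. The enzymes and lists were chosen with earlier results of these data known. The scripts were tested on simulated data. The simulation held no difference in composition between the groups like the one met here, so it could not test the scaling.

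Alternatives tried were DESeq2's size factors, the upper quartile, library size alone, no filter, a filter of 1 CPM in 3 libraries, DESeq2, limma-voom, a replicate block and leaving out each library.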

Additional observations from a re-analysis of the deposited data

How the results depend on the processing

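Under library size alone 2166 genes rose and 8003 fell, and of the enzymes 8 rose and 40 fell (writers 3 and 13, erasers 5 and 27). Under the upper quartile 13 enzymes, 7 of them erasers, rose. Of the 45 calls on enzymes, 26 stood with the same sign under every alternative that tested them (Hdac11 was not kept by the filter of 1 CPM). These were 8 of the 23 rises and 18 of the 22 falls. Leaving out 1 library gave 21 to 24 enzymes that rose and 19 to 22 that fell. Dnmt3l was among those that rose in 4 of these fits, where the filter kept it only through its β-elemene counts. The cause of the shift with the scaling was not tested. The replicate numbers showed no pairing of samples. Between same-numbered libraries, the deviations of all genes from their group means had correlations of only -0.0236 to 0.0773. With a replicate block 23 enzymes rose and 22 fell, with no enzyme call changed.

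The log2 fold changes that turned negative under the upper quartile and under library size alone were, in that order, -0.19 and -0.51 for Ezh1, -0.13 and -0.45 for Ezh2, -0.26 and -0.58 for Hdac2, -0.22 and -0.54 for Hdac3, -0.029 and -0.35 for Hdac7, -0.15 and -0.48 for Kdm2a, -0.15 and -0.47 for Kdm3a, -0.25 and -0.57 for Kdm5b, -0.25 and -0.57 for Kdm8, -0.18 and -0.50 for Kmt2e, -0.013 and -0.34 for Setd2, and -0.25 and -0.57 for Kmt5b. Under library size alone those of Kdm5a (-0.23), Kmt2b (-0.27), Setd3 (-0.25), Setd5 (-0.036), Sirt1 (-0.32), Sirt2 (-0.13), Sirt6 (-0.17) and Ncoa6 (-0.13) did as well. Leaving out 1 library turned the sign of 6 values. These were genes without a call under TMM with all libraries and ratios whose groups overlapped. Their ranges were -0.056 to 0.020 for Kdm4c, -0.30 to 0.10 for Kdm6b and -0.10 to 0.33 for Kdm8, and, for ratios, -0.032 to 0.15 for Ezh2 to Ezh1, -0.097 to 0.28 for Kdm6b to Kdm6a and -0.0038 to 0.12 for Kmt2d to Kmt2c.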
